A study of Homo sapiens with 6 samples.

Results

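DNA methyltransferases and the proteins that help them copy methylation onto new DNA strands were followed through 10 genes: DNMT1, DNMT3A, DNMT3B, DNMT3L, UHRF1, UHRF2, HELLS, CDCA7, USP7 and TRDMT1. Their members are every probe set whose single gene symbol in the platform annotation is one of these names, which gave 22 of the 54613 probe sets on the array apart from controls. The rule for membership used gene symbols and no measured value, although the genes were chosen with earlier results of these data known. Of the 22, 18 were bright enough to be tested, and they cover 9 of the 10 genes. Of the rest, 2 probe sets of TRDMT1, 1 of DNMT3A and the only one of DNMT3L lay below the brightness filter.

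The arrays compared cells given siRNAs against TET1, TET2 and TET3 together (TET siRNA, 3 arrays) with cells given a non-targeting siRNA pool (control siRNA, 3 arrays). All cells were Flp-In T-REx 293, a human line derived from embryonic kidney HEK293 cells, kept in serum-containing medium with selective antibiotics, and RNA was taken 96 h after the siRNAs. Each cell population carried a stable, inducible GFP transgene that had not been switched on, in the control arrays as well. The labels name the same 3 clones in both groups, so each clone gave 1 TET siRNA array and 1 control siRNA array. The tests compare 3 clones of 1 line, and their variance estimates draw in part on other probe sets.

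DNMT3A and DNMT3B place new methyl groups on cytosine, and DNMT3L is a relative without catalytic activity that stimulates them, best known from germ cells and early embryos. DNMT1 copies methylation after replication: UHRF1 recognises hemimethylated CpG sites behind the fork and ubiquitinates histone H3, which brings DNMT1 in, while USP7 is a deubiquitinase that binds both DNMT1 and UHRF1. HELLS is a chromatin remodeller and CDCA7 the zinc finger protein that activates it, and inherited loss of either gives a DNA hypomethylation syndrome. TET enzymes oxidise the methyl groups that these proteins place, so the comparison asks whether cells depleted of the oxidising side alter the transcripts of the writing side.

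UHRF1, HELLS, DNMT1 and CDCA7 are known as genes expressed around S phase and as targets of E2F factors. The RefSeq promoter windows of the members (GRCh38.p14, 250 bases before to 50 after each annotated start) were therefore searched on both strands for 4 E2F-type motifs, TTTCCCGC, TTTCGCGC, TTTGCCGC and TTTGGCGC. A match was found in 3.31% of all 35116 windows, and in 5 of the 18 windows of the members. Those 5 belonged to 4 of the 9 genes with a window: HELLS with 2 matches in its 1 window, DNMT1 and CDCA7 with 1 each, and UHRF1 in 2 of its 3 windows. None of the 6 windows of DNMT3A, the 3 of USP7 or the single windows of UHRF2, DNMT3B and TRDMT1 held any of these strings. Of the 20 genes with a window among the E2F targets described below, 12 had a match, against 3.99% of all genes with a window. All 4 strings contain a CpG, and the median CpG count was 26 in the windows of the members, against 14 over all windows. No background matched for CpG content was used, so these shares do not separate the motifs from CpG content. The first listed window of the 4 genes with a match, and of UHRF2 and DNMT3A as members without one, is given here 5′ to 3′ along the gene, with the matches in capitals. The first 4 are shown as the members with a match, and the other 2 as examples of members without one. None of these genes passed the threshold below, and the motifs were not tested against the differences.
UHRF1, chr19:4909251-4909550, plus strand: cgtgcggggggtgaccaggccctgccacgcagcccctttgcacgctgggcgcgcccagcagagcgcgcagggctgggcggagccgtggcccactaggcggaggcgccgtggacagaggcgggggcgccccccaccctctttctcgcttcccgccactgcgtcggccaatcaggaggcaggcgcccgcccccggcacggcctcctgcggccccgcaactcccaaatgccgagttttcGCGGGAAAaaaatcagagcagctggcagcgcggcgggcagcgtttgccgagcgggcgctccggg
HELLS, chr10:94545538-94545837, plus strand: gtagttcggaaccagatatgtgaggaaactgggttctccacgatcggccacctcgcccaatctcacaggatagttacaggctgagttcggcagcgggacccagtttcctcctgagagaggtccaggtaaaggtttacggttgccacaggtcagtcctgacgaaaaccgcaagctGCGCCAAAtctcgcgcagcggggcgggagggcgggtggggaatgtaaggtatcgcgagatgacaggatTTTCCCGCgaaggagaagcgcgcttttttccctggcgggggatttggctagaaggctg
DNMT1, chr19:10194904-10195203, minus strand: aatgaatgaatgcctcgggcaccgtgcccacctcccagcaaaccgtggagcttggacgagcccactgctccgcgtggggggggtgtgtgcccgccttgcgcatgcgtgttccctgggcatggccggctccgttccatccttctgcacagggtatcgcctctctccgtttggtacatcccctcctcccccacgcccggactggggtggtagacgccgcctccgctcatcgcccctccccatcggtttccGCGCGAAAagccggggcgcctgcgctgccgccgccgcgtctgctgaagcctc
CDCA7, chr2:173354622-173354921, plus strand: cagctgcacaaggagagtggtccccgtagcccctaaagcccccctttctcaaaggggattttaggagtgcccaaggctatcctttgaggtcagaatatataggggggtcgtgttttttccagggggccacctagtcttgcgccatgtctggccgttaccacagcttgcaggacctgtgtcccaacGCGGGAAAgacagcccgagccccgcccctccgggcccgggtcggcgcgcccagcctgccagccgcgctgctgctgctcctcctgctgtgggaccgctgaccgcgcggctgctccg
UHRF2, chr9:6412949-6413248, plus strand: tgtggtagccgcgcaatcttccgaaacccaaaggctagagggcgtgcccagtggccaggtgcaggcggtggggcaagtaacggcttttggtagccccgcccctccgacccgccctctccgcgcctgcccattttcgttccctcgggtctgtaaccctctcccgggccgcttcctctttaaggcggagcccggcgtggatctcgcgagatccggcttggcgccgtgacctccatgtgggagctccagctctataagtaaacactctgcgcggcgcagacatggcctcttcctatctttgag
DNMT3A, chr2:25342434-25342733, minus strand: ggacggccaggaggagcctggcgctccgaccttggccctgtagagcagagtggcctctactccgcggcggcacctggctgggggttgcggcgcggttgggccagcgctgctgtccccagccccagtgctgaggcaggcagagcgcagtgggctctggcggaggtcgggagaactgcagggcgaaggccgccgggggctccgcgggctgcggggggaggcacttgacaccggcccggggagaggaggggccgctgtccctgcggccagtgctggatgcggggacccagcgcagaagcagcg

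In UHRF1 the printed match began 14 bases before the annotated start, in DNMT1 2 bases and in CDCA7 65 bases, all on the strand opposite to the gene. In HELLS the match on the opposite strand began 76 bases before the start and the other, on the gene's own strand, 8 bases before it. The second UHRF1 window held a match 160 bases before its start. CpG dinucleotides numbered 36 in the printed UHRF1 window, 30 in DNMT1, 26 in UHRF2, 26 in DNMT3A, 22 in HELLS and 20 in CDCA7. The median over all windows was 14, and the single window of DNMT3B held 3. Counts differed between annotated starts of a gene, from 0 to 50 over the 3 windows of USP7 and 18 to 46 over the 6 of DNMT3A. A match describes the letters in the window and was not tested as a binding site.

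**Figure D1:**
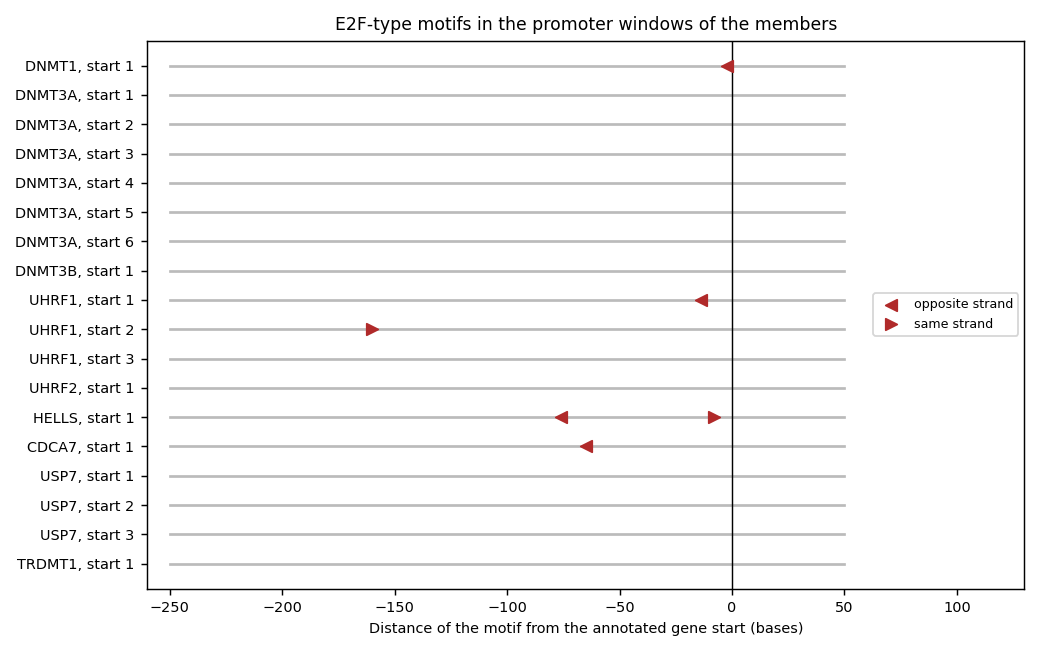
Positions of the E2F-type motifs in the 18 promoter windows of the members. The x axis is the distance from the annotated gene start in bases, each grey line is 1 window from 250 bases before to 50 after a start, and arrowheads give the strand of the match. Matches lie in 5 windows, of DNMT1, UHRF1, HELLS and CDCA7.

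The silencing of the TET genes passed in the same test: TET1, TET2 and TET3 fell, with log2 differences of -2.48, -1.10 and -1.22 at their brightest probe sets (limma adjusted p = 3.09e-06, 0.00468 and 0.00206, lower in 3 of 3 clones each). These 3 genes have 8 probe sets on the array, and those other than the brightest are not given here. Without the clone in the fit, TET2 (adjusted p = 0.198) and TET3 (0.0678) did not pass, and none of the TET genes did without limma's variance trend and robust step (0.320). All 7 markers fixed for HEK293 cells were above the brightness filter, with summed signals of 61680 to 73907 in TET siRNA arrays and 71730 to 76820 in control siRNA arrays. In TET siRNA arrays they ran from VIM (30595 to 38565) and NEFL (17071 to 21980) down to PAX2 (255 to 339) and NEFM (193 to 406). Of 8 markers of other cell types only PECAM1 was above the filter (147 to 176 in TET siRNA arrays). The filter uses the mean over all arrays, and single arrays of other markers reached as high: in TET siRNA arrays MYOD1 ran from 44.5 to 226 and CD3E from 49.1 to 168. The summed signals of these 8 were 582 to 732 in TET siRNA arrays and 473 to 634 in control siRNA arrays. MAS5 signals carry no read depth, and precision is limited by having 6 arrays.

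No DNA methyltransferase or partner transcript changed past the threshold. In limma with the clone as a block, 0 of the 18 tested probe sets had an adjusted p under 0.05, where 1.03% of all 27306 tested probe sets did (105 higher, 177 lower). The adjusted p of the 18 ran from 0.0873 to 0.996, and from 0.628 to 0.999 without the clone, where 0.0146% of all probe sets passed. At an unadjusted p under 0.05 there were 6 of the 18, 4 lower and 2 higher, against 14.4% of all tested probe sets (6.12% lower and 8.25% higher). These 6 were 3 probe sets of HELLS and that of UHRF1, lower in 3 of 3 clones, and 1 probe set of DNMT3A and that of UHRF2, higher in 3 of 3 clones. The median size of the difference was 0.097 on the log2 scale over the 18 and 0.12 over all tested probe sets, and the smallest difference that passed at any tested probe set in this fit was 0.319. In bulk RNA, fewer cells in a given state and less RNA per cell cannot be told apart.

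**Figure D2:**
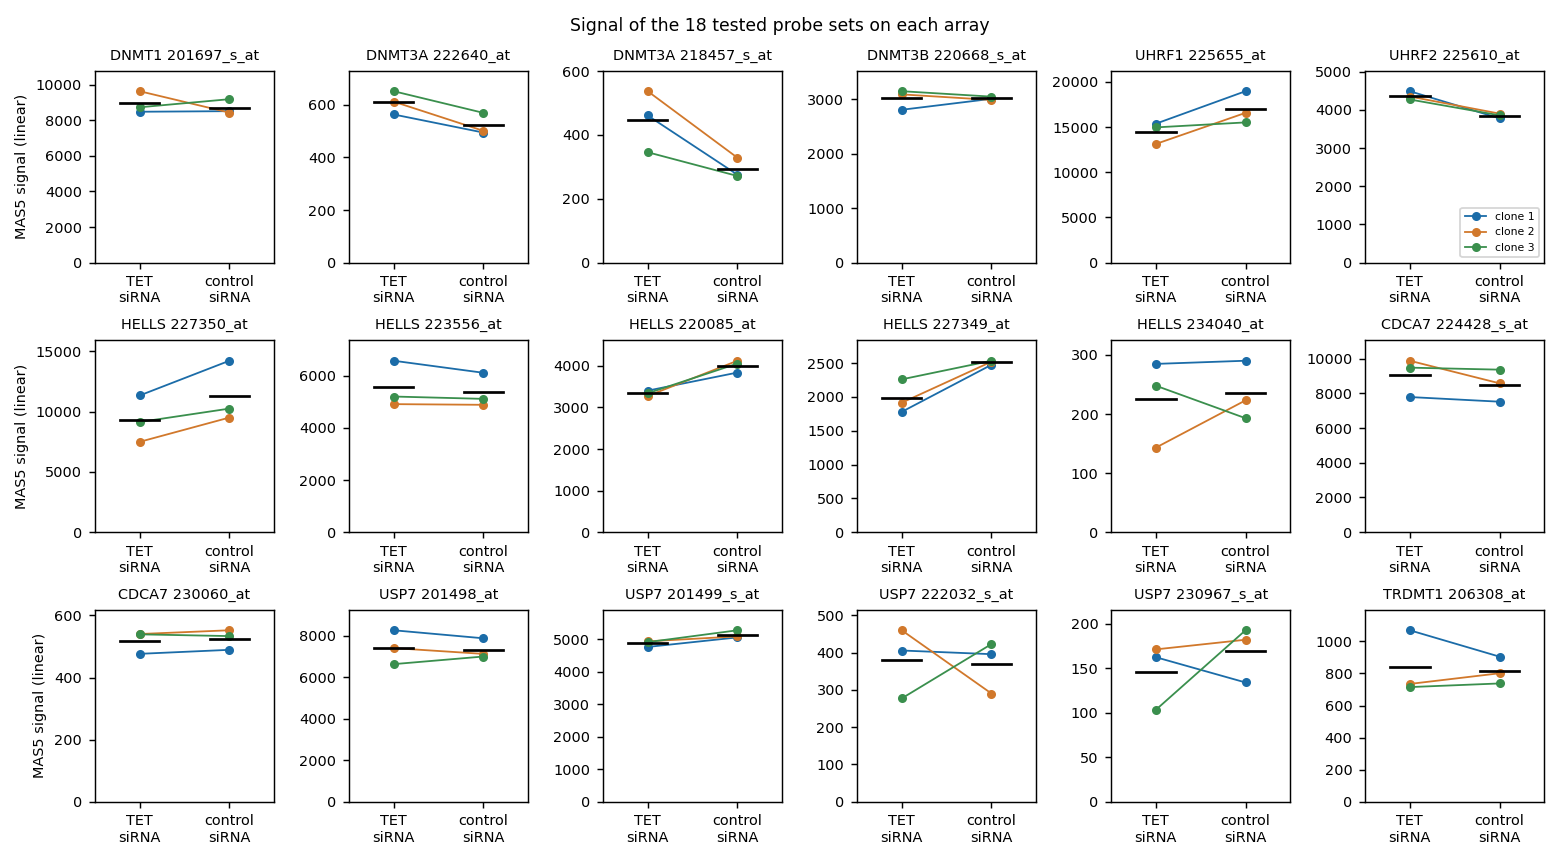
MAS5 signal (linear scale, each panel with its own axis from 0) of the 18 tested probe sets, with TET siRNA on the left and control siRNA on the right. Points are arrays, coloured lines join the arrays of 1 clone and black bars are means of 3 arrays. All 3 lines slope the same way for UHRF1, UHRF2, both DNMT3A probe sets, 4 of the 5 HELLS probe sets, CDCA7 224428_s_at and USP7 201499_s_at.

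Among the de novo enzymes, DNMT3A had the largest difference of all the tested probe sets of these genes. Its probe set 218457_s_at had signals of 461, 537 and 346 in TET siRNA arrays of clones 1, 2 and 3, against 275, 329 and 271 in control siRNA arrays. The groups did not overlap, and clone 3 had the smallest difference. The log2 difference was 0.60 (SE 0.17, 95% interval 0.23 to 0.97), or 152% of control, with an unadjusted p of 0.00448 and a limma adjusted p of 0.131 that did not pass. The brighter DNMT3A probe set, 222640_at, had 563, 612 and 652 in TET siRNA arrays, against 495, 501 and 570 in control siRNA arrays. There the lowest TET siRNA array lay below the highest control siRNA array, although each clone was higher by itself. The difference was 0.22 (SE 0.13, interval -0.07 to 0.51, limma adjusted p = 0.482). Averaged over both tested probe sets, DNMT3A differed by 0.41 (limma adjusted p = 0.167 over genes). The dim DNMT3A probe set 244428_at gave 139, 118 and 21.5 in TET siRNA arrays, against 94.5, 108 and 138 in control siRNA arrays. It was higher in clones 1 and 2 and lower in clone 3, with an interval of -2.04 to 0.70, so it bounds little.

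DNMT3B showed almost no difference. Its signals were 2804, 3086 and 3144 in TET siRNA arrays, against 3005, 2984 and 3045 in control siRNA arrays. The log2 difference was -0.0017 (SE 0.08), and its interval of -0.17 to 0.17 corresponds to 88.8 to 112% of control. DNMT3L was below the brightness filter, at 83.3, 21.9 and 59.9 in TET siRNA arrays, against 24.6, 96.5 and 32.0 in control siRNA arrays. Its values crossed between clones, with an interval of -1.67 to 2.02 on the log2 scale. The DNMT3A to DNMT3B ratio of the brightest probe sets was higher under TET siRNA by 0.29, 0.24 and 0.15 on the log2 scale in clones 1, 2 and 3 (mean 0.23). This ratio was chosen after the values were seen and is a description, with no test.

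DNMT1, the maintenance methyltransferase, stayed within its spread. Its single probe set had signals of 8477, 9631 and 8728 in TET siRNA arrays, against 8510, 8429 and 9182 in control siRNA arrays. Clone 2 was higher under TET siRNA and clones 1 and 3 were lower. The difference was 0.04 (SE 0.07, limma adjusted p = 0.868), and the interval of -0.12 to 0.20 covers 92.0 to 115% of control, so a change of DNMT1 on the scale of that of TET2 or TET3 lies outside it.

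UHRF1 and UHRF2, paralogous ring finger proteins of which UHRF1 is the one needed to maintain methylation, had differences of opposite sign, neither past the threshold. UHRF1 had signals of 15366, 13123 and 14961 in TET siRNA arrays, against 18965, 16569 and 15512 in control siRNA arrays. The groups did not overlap, but clone 3 differed by only -0.05 on the log2 scale while clones 1 and 2 differed by -0.30 and -0.34. The fitted difference was -0.23 (SE 0.08, interval -0.40 to -0.06), or 85.2% of control, with a limma adjusted p of 0.193. UHRF2 had 4491, 4352 and 4274 in TET siRNA arrays, against 3780, 3904 and 3859 in control siRNA arrays. Every TET siRNA array was above every control siRNA array, by 0.25, 0.16 and 0.15 in clones 1, 2 and 3. The difference was 0.18 (SE 0.07, interval 0.03 to 0.34), or 114% of control, and the limma adjusted p was 0.261.

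The UHRF2 to UHRF1 ratio was higher under TET siRNA by 0.55, 0.49 and 0.20 on the log2 scale in clones 1, 2 and 3 (mean 0.41). It was likewise chosen after the values were seen, and it was not tested.

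HELLS had negative differences at 4 of its 5 probe sets, 3 of them with an unadjusted p under 0.05 and none past the threshold. The brightest, 227350_at, had 11333, 7488 and 9134 in TET siRNA arrays, against 14215, 9502 and 10246 in control siRNA arrays. The groups overlapped because the clones differed, yet each clone was lower, by 0.33, 0.34 and 0.17. The difference was -0.28 (SE 0.07, interval -0.43 to -0.13), with the smallest p among the tested members (unadjusted 0.00175, limma adjusted 0.0873, and 0.838 without the clone). At 220085_at the signals were 3405, 3276 and 3342 in TET siRNA arrays, against 3840, 4124 and 4056 in control siRNA arrays. At 227349_at they were 1779, 1914 and 2260 in TET siRNA arrays, against 2475, 2521 and 2535 in control siRNA arrays. Neither of these probe sets had overlapping groups, and their differences were -0.26 (SE 0.07, adjusted p = 0.131) and -0.35 (SE 0.09, adjusted p = 0.104).

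The other 2 HELLS probe sets had differences nearer 0. The second brightest, 223556_at, had 6577, 4912 and 5204 in TET siRNA arrays, against 6114, 4886 and 5114 in control siRNA arrays, slightly higher in every clone. Its difference was 0.05 with an interval of -0.10 to 0.19, which does not meet the interval of 227350_at. The dimmest, 234040_at, had 285, 143 and 248 in TET siRNA arrays, against 290, 223 and 193 in control siRNA arrays, with clone 3 opposite to clone 2 (difference -0.10, SE 0.24). Averaged over its 5 probe sets, HELLS differed by -0.19 (limma adjusted p = 0.280 over genes). The difference between HELLS probe sets was not tested, and which transcript each one reads was not analysed here.

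**Figure D3:**
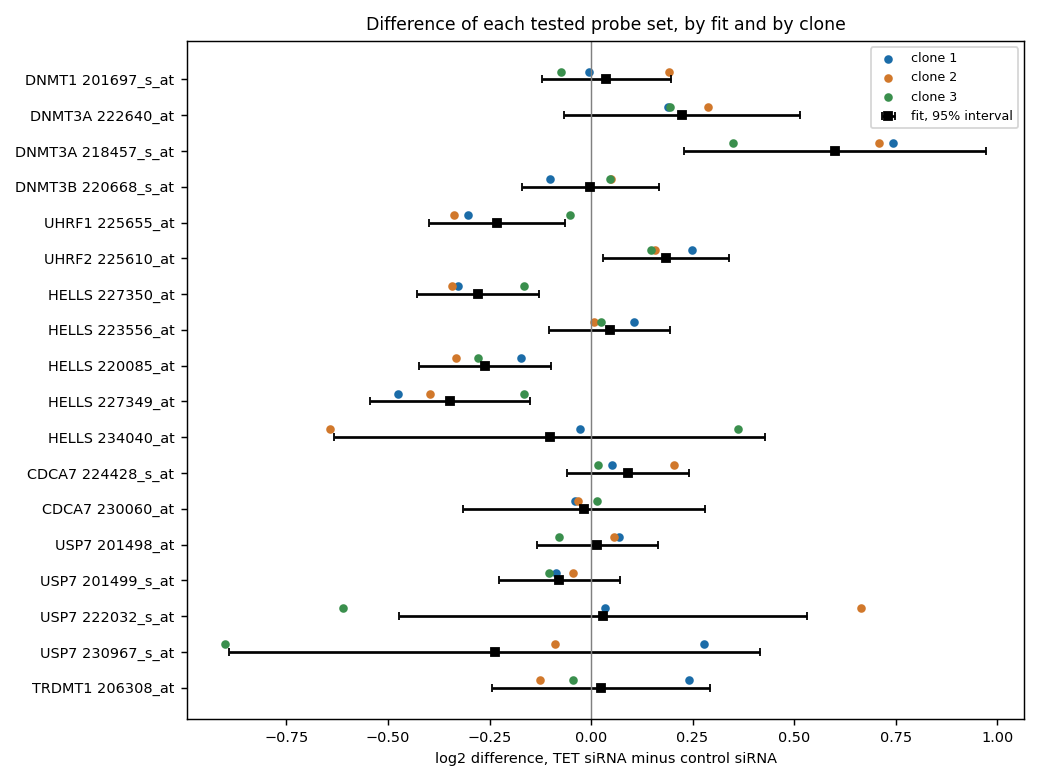
Log2 difference, TET siRNA minus control siRNA, of the 18 tested probe sets. Black squares with bars are the limma fit with its 95% interval, and coloured points are the single clones. The intervals of 3 HELLS probe sets and UHRF1 lie below 0, and those of UHRF2 and the DNMT3A probe set 218457_s_at lie above it, while none passed after adjustment.

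CDCA7, the activator of HELLS, had a difference near 0. Its bright probe set 224428_s_at had 7785, 9877 and 9479 in TET siRNA arrays, against 7517, 8576 and 9363 in control siRNA arrays. The groups overlapped, and the difference was 0.09 (SE 0.07, interval -0.06 to 0.24; limma adjusted p = 0.598). The dimmer probe set 230060_at differed by -0.02 (interval -0.32 to 0.28). USP7 was as even at its bright probe sets: 201498_at had 8260, 7401 and 6628 in TET siRNA arrays, against 7873, 7121 and 6995 in control siRNA arrays, a difference of 0.02 (interval -0.13 to 0.16). The USP7 probe set 201499_s_at had 4763, 4936 and 4911 in TET siRNA arrays, against 5057, 5088 and 5276 in control siRNA arrays. Its groups did not overlap, but the difference was only -0.08 (SE 0.07, adjusted p = 0.658). The dim USP7 probe sets 222032_s_at and 230967_s_at differed by 0.03 and -0.24 with intervals of -0.47 to 0.53 and -0.89 to 0.42. Averaged over its 4 probe sets, USP7 differed by -0.07 (limma adjusted p = 0.834 over genes).

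TRDMT1 resembles the DNA methyltransferases in sequence but methylates cytosine in transfer RNA. Its tested probe set 206308_at had 1069, 735 and 715 in TET siRNA arrays, against 905, 801 and 738 in control siRNA arrays. Clone 1 was higher under TET siRNA and the other clones lower, with a difference of 0.02 (interval -0.24 to 0.29). Its dim probe sets 232121_at and 243504_at had signals of 4.26 to 98.1 in TET siRNA arrays and 34.9 to 101 in control siRNA arrays. Over all members, the groups did not overlap at 6 of the 18 tested probe sets, against 12.7% of all tested probe sets. The same sign in the 3 clones was seen at 10 of the 18, against 36.2%. Several of the 18 read the same gene (5 HELLS and 4 USP7), so they are not independent, and these shares were not tested.

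The clones differed among themselves at some probe sets, given here as a description, since each clone has 1 array per treatment and clone 1 is a single clone. HELLS 227350_at had a mean signal over both treatments of 12774 in clone 1, against 8495 and 9690 in clones 2 and 3, a log2 difference of 0.49. At HELLS 223556_at the means were 6346 in clone 1, against 4899 and 5159 in clones 2 and 3 (0.34). CDCA7 224428_s_at had 7651 in clone 1, against 9226 and 9421 in clones 2 and 3 (-0.28). At HELLS 220085_at and 227349_at the same differences were -0.02 and -0.13. The 18 tested probe sets ranged from -0.28 to 0.54, and the sizes were largest at HELLS 234040_at, HELLS 227350_at and TRDMT1 206308_at (0.40).

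**Figure D4:**
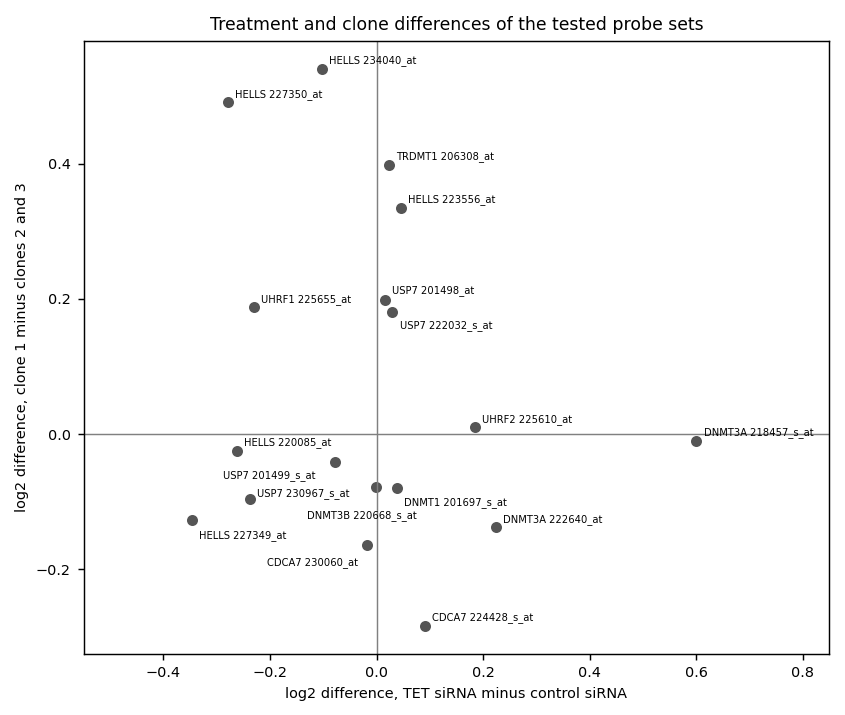
Each point is 1 of the 18 tested probe sets, with the log2 difference of TET siRNA minus control siRNA on the x axis and that of clone 1 minus the mean of clones 2 and 3 on the y axis. Both differences are descriptions of single probe sets. HELLS 227350_at lies at -0.28 and 0.49, and HELLS 220085_at at -0.26 and -0.02.

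Genes that work beside the members gave 1 call among all lists. Of 12318 genes tested by their brightest probe set, 1.32% passed, 0.479% as higher and 0.836% as lower, and the median difference was 0.0070. Of the 23 measured E2F targets of G1/S, 1 rose and none fell, 12 were positive and the median was 0.0042. The one that rose was CCNE2, cyclin E2, an activator of CDK2 at S phase entry. It had 6323, 4092 and 4156 in TET siRNA arrays, against 4729, 3473 and 3012 in control siRNA arrays, and was higher in each clone although the groups overlapped. The difference was 0.37 (SE 0.08, limma adjusted p = 0.0447), and the call was lost without the clone (0.797), with no brightness filter (0.182), with quantile normalization (0.0511), without the trend and robust step (0.341), without clone 1 (0.192) and without clone 3 (0.385).

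Replication-coupled maintenance partners, which include PCNA, the DNA ligase LIG1 and chromatin assembly factor, had 16 measured genes, of which 9 were positive and none passed (median 0.04). The smallest p belonged to the deubiquitinase USP11 (0.21, SE 0.07, adjusted p = 0.195) and to BAZ2A, a subunit of the complex that silences ribosomal DNA (0.28, SE 0.12, adjusted p = 0.335). Histone methylation partners had 18 measured genes with 11 positive, none passing and a median of 0.02. In that list KDM1A, a histone demethylase, had a difference of -0.24 (SE 0.07, adjusted p = 0.125), and CBX5, the heterochromatin protein HP1 alpha, had 0.24 (SE 0.07, adjusted p = 0.132). The list for the S-adenosylmethionine cycle and one-carbon supply includes enzymes that make the methyl donor and others that act downstream of it. It had 16 measured genes with 6 positive, none passing and a median of -0.03. Here SHMT1, the cytosolic serine hydroxymethyltransferase, had 0.65 (SE 0.23, limma adjusted p = 0.216) and SRM, spermidine synthase, 0.14 (SE 0.07, limma adjusted p = 0.384). The SHMT1 signals were low, at 338, 296 and 210 in TET siRNA arrays of clones 1, 2 and 3, against 167, 237 and 137 in control siRNA arrays. The NSUN family, which like TRDMT1 methylates cytosine in RNA, had 5 measured genes with 3 positive and none passing (median 0.04; NSUN2 -0.12 and NSUN4 0.12).

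**Figure D5:**
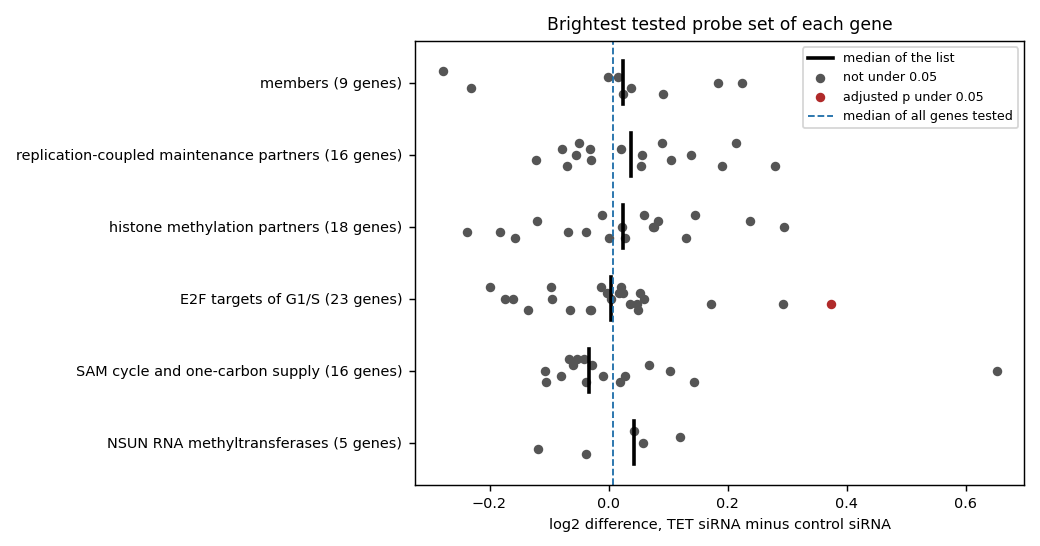
Log2 difference, TET siRNA minus control siRNA, at the brightest tested probe set of each gene, by list. Points are genes, black bars the median of a list and the dashed line the median of all genes tested. The red point is CCNE2, the only gene of these lists to pass, and the 2 lowest points among the members are HELLS and UHRF1.

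Over the 6 arrays, the genes whose log2 signal followed that of UHRF1 most closely were FANCC, of the Fanconi anaemia core complex (Pearson r = 0.996), MFSD11 (0.987) and TXLNG (0.982). For DNMT1 they were the kinases AKT1 (0.990) and STK25 (0.987) and the sulfotransferase CHST3 (0.986). These are the highest of 12317 genes compared, the arrays share 3 clones, and 108 genes had a correlation above 0.9 with UHRF1 and 94 with DNMT1.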

How the data were processed

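Biotin-labelled cRNA from 6 samples was measured on Affymetrix arrays of 1 colour, per the labels' protocols. The authors deposited 1 intensity per probe set and array, a MAS5 signal on a linear scale, per the submitters' processing notes. With 2% of the values trimmed at each end, all 6 arrays had a mean of 1000.1, so the values had been scaled and were not normalised again. MAS5 works array by array and leaves dim probe sets noisy. A suffix of s in a probe set name marks probes that can match several transcripts. Detection calls were not used here.

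After 62 control probe sets were set aside, log2 signals of the upper 50% by mean (27306 probe sets, a geometric mean of at least 117) were fitted in limma 3.58.1 (R 4.3.3) with the clone as a block and trended, robust empirical Bayes moderation, two-sided, at a Benjamini-Hochberg adjusted p of 0.05 over all tested probe sets. Values of dim members come from that model fitted to all probe sets. SE values come from this fit and, through the moderation, are not the spread of a probe set over its own clones alone. The fit was also run on simulated data with the same noise level at every probe set, which cannot check the variance trend or the robust step. The clone number pairs the arrays, since the labels give the same clones in both groups, and deviations from group means correlated within clones 1, 2 and 3 at 0.493, 0.234 and 0.236. Paralog ratios and clone differences are given as descriptions, with no test.

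Names came from the platform annotation, of which 41037 of 41091 single-gene probe sets matched RefSeq (GRCh38.p14) by Entrez ID, and promoter windows came from RefSeq. All members were named with every probe set. In each list the passing genes, at most 4 per direction, or else the 2 of smallest p were named, and for UHRF1 and DNMT1 the 3 most similar genes. The members and lists were chosen with earlier results of these data known. Alternatives were the fit without the clone, other brightness filters (none, or the upper 30%), quantile normalization, a pseudocount of 36.1, plain empirical Bayes, each clone left out and the mean over a gene's probe sets. Plots used matplotlib 3.10.9.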

Additional observations from a re-analysis of the deposited data

How the results depend on the processing

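The count of members past the threshold was 0 under every alternative run: without the replicate block, with no brightness filter or the upper 30%, with quantile normalization, a pseudocount, plain empirical Bayes, and without each clone. Over all tested probe sets the count of 282 became 4 with no replicate block, 70 with no filter and 0 with plain empirical Bayes in limma (3355 at an unadjusted p under 0.05), and it ranged from 63 to 684 when a clone was left out (63 without clone 3, 108 without clone 1, 684 without clone 2). The single call in the lists, CCNE2, became 0 with no replicate block, no filter, quantile normalization or plain empirical Bayes, and ranged from 0 to 1 when a clone was left out.

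Of 185 alternative values of the members, 15 changed sign, all from differences that had not passed. The 185 include values that could not change sign. Dropping the replicate block, another brightness filter and plain empirical Bayes each leave the log2 difference itself as it was. Only quantile normalization, the pseudocount and leaving out a clone could change a sign. The differences of UHRF1, UHRF2, CDCA7, USP7 201499_s_at, both tested DNMT3A probe sets and the 4 brighter HELLS probe sets kept their sign throughout. With quantile normalization USP7 222032_s_at became -0.012 and TRDMT1 206308_at -0.0011. When a clone was left out, the log2 difference ranged from -0.039 to 0.093 for DNMT1, -0.027 to 0.047 for DNMT3B, -1.28 to 0.34 for DNMT3A 244428_at, -0.62 to 1.33 for DNMT3L, -0.33 to 0.17 for HELLS 234040_at, -0.011 to 0.062 for USP7 201498_at, -0.29 to 0.35 for 222032_s_at and -0.49 to 0.094 for 230967_s_at. For TRDMT1 it ranged from -0.085 to 0.098 at 206308_at, -0.061 to 0.26 at 232121_at and -1.82 to 0.35 at 243504_at. The lowest adjusted p of any member was 0.0622, for HELLS 227350_at in the upper 30%. The cause of these moves was not tested. With 3 clones and a median residual SD of 0.13 on the log2 scale, the smallest difference that passed with all 6 arrays and the clone as a block was 0.319.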
